A study of Rattus norvegicus with 8 samples.

Results

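The genes of the rat major histocompatibility complex, RT1, and of the pathway that loads peptides onto their products were measured by RNA sequencing in the cervix of pregnant Sprague-Dawley rats, an outbred strain labelled wild type. The PBS group received phosphate-buffered saline, and the LPS group received 100 µg/kg lipopolysaccharide, a glycolipid of Gram-negative bacteria, in the same volume. Both were injected into the peritoneum on gestational day 17 and sampled 12 hours later, with 4 libraries per group that the series calls biological replicates. The series describes the injection as a rat model of preterm birth. Every symbol starting with RT1- was taken, together with B2m, Tap1, Tap2, Tapbp, Tapbpl, Erap1, Nlrc5, Ciita, Cd74, Rfx5, Rfxap and Rfxank. This gave 58 of the 29884 gene symbols in the deposited table, namely 36 class I rows, 10 class II rows (symbols starting with RT1-B, RT1-D or RT1-H) and 12 genes of processing and regulation. The symbols were set by name, with earlier results of these data known.

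Class I molecules are made by nearly all nucleated cells. A heavy chain pairs with beta-2-microglobulin in the endoplasmic reticulum, takes up a peptide that the proteasome has cut and the TAP pump has imported, and shows it to CD8 T cells. Class II molecules are alpha and beta chain pairs of dendritic cells, macrophages and B cells. They travel with the invariant chain Cd74 to endosomes, where they are loaded with peptides of engulfed proteins and shown to CD4 T cells. The RFX complex binds the promoters of both classes, and the coactivators Nlrc5 and Ciita, which do not bind DNA themselves, dock there, Nlrc5 mainly at class I and Ciita at class II genes. The number of RT1 class I genes and their alleles differ between rat haplotypes, so reads of an outbred animal may fit 1 row of a reference better than another.

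Total counts ran from 33191039 to 40634384 per library, and 16117 genes passed the filter on low counts and were tested. Levels are given as CPM, the counts of a row per fixed number of counts in the library, scaled between libraries with TMM, which trims extreme genes before it compares libraries. A gene was called where edgeR's quasi-likelihood test gave an adjusted p under 0.05 over all genes tested. Of all genes, 9.49% were called higher and 7.45% lower after LPS. Markers of the tissue were present in every library. The summed level of 6 smooth muscle markers was 3274 to 9373 CPM in PBS and 2810.0 to 4113 CPM in LPS, and that of 5 markers of squamous epithelium was 4772 to 8892 CPM and 3073 to 4066 CPM. LPS replicate 4 stood furthest apart in the RT1 rows. Of the 23 class I rows tested, 10 lay more than 2-fold from the median of the other LPS libraries there (43.5%, against 7.79% of all genes tested). The class I share was also above that of all genes in each other library. It was 8.70 to 26.1%, highest in PBS replicate 4, against 5.42 to 9.73% of all genes tested. Results are also given without LPS replicate 4 where they change.

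After LPS, about as many class I heavy chain rows were called higher as were not, beta-2-microglobulin and the genes of peptide transport, trimming and loading were higher, the class II chains that bind peptide were not called, and the pair of genes that encode RT1-DO, an inhibitor of class II loading, was lower. Of 23 class I rows tested, 12 were called higher and 0 lower, with a median log2 fold change of 1.24 against 0.01 for all genes tested. For 12 class I rows every LPS library lay above every PBS library, which held for 12.9% of all genes tested. Of 8 class II rows tested, 0 were called higher and 2 lower, with a median of -0.27. Of the 12 genes of processing and regulation, all of which were tested, 8 were called higher and 0 lower (median 0.79).

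**Figure D1:**
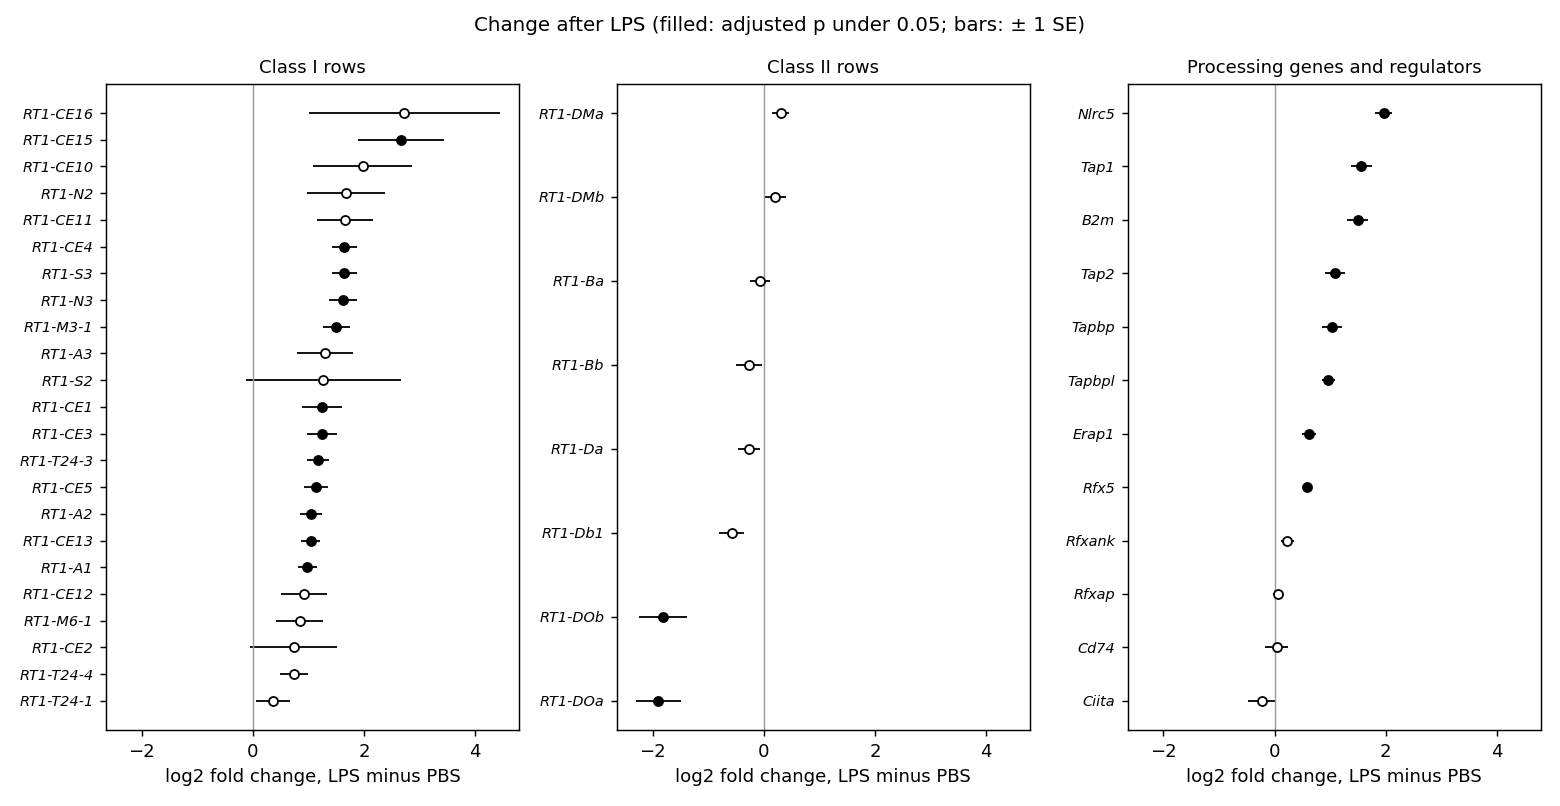
Log2 fold change (LPS minus PBS, edgeR) of the 43 members that were tested, with bars of 1 standard error; filled points passed the adjusted threshold. The class I rows all lie to the right of 0, from 0.35 for RT1-T24-1 to 2.73 for RT1-CE16, whereas the class II rows run from -1.90 to 0.30.

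The 13 class I rows that were not tested fell below the filter on low counts, and 7 of them had no count in any library. A row that passed the filter because it was high in LPS had to differ, so the shares above describe the rows and are no evidence about class I genes as a whole.

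Processing of class I peptides comes first. Beta-2-microglobulin (B2m), the light chain that class I molecules share, stood at 1421, 1078, 1627 and 955 CPM in PBS replicates 1 to 4 and at 3672, 3625, 4116 and 2954 CPM in LPS replicates 1 to 4. Every LPS library lay above every PBS library by more than the range within either group. Its mean rose 2.83-fold, from 1270.3 ± 309 to 3592 ± 479 CPM (SD, n = 4 in each group), and by 1.5 on the log2 scale (SE 0.19, edgeR adjusted p = 0.00197).

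Tap1 and Tap2 together form the pump that carries peptides into the endoplasmic reticulum. Levels of Tap1 were 49.7, 36.8, 38.5 and 35.4 CPM in PBS replicates 1 to 4 and 154, 90.6, 134 and 95.8 CPM in the LPS libraries in the same order. The groups did not overlap, and LPS replicates 1 and 3 were the highest. Tap1 rose by 1.56 on the log2 scale (SE 0.19, edgeR adjusted p = 0.00184). Tap2 rose from 45.1 ± 10.1 to 95.6 ± 19.0 CPM (n = 4 per group), by 1.08 (SE 0.18, edgeR adjusted p = 0.00638). Its LPS libraries, from 74.1 to 119 CPM, lay above its PBS libraries, from 37.9 to 60.0 CPM. The ratio of Tap1 to Tap2 CPM was 0.828 to 0.934 in the PBS libraries and 1.02 to 1.34 in the LPS libraries. The mean log2 ratio was 0.45 higher in LPS. The ratio was chosen after its values were seen and is given as a description.

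Tapasin (Tapbp), which holds empty class I molecules at the pump, rose from 144 ± 27.4 to 295 ± 56.6 CPM (log2 fold change 1.03, SE 0.17, edgeR adjusted p = 0.00621). Its relative Tapbpl, a peptide editor that works away from the pump, stood at 35.1 to 45.9 CPM in PBS and 70.8 to 94.7 CPM in LPS and rose by 0.97 (SE 0.12, edgeR adjusted p = 0.00159). Erap1, the aminopeptidase that trims peptides to length, rose by 0.62 (SE 0.12, edgeR adjusted p = 0.0104). It stood at 111, 87.5, 107 and 90.9 CPM in PBS and 182, 142, 140.4 and 143 CPM in LPS. The LPS libraries lay above those of PBS, with LPS replicate 1 the highest.

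Nlrc5, the coactivator of class I genes, had the lowest adjusted p of the 43 members that were tested. Its levels were 15.7, 10.1, 12.9 and 11.1 CPM in PBS replicates 1 to 4 and 58.2, 44.97, 46.2 and 44.97 CPM in LPS replicates 1 to 4. The lowest LPS library was thus far above the highest PBS library. It rose 3.89-fold, a log2 fold change of 1.96 (SE 0.16, edgeR adjusted p = 0.0004). Ciita, the coactivator of class II genes, stood at 8.05, 8.61, 13.1 and 10.2 CPM in PBS and 11.2, 8.86, 8.99 and 5.18 CPM in LPS. Its groups overlapped, and its log2 fold change was -0.23 (SE 0.25, edgeR adjusted p = 0.573). The ratio of Nlrc5 to Ciita, also chosen after the values were seen, was 0.985 to 1.96 in PBS and 5.08 to 8.68 in LPS.

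Of the subunits of the RFX complex, Rfx5 rose, from 35.6 ± 2.19 to 53.2 ± 5.08 CPM (log2 fold change 0.58, SE 0.09, edgeR adjusted p = 0.0041). Rfxap had 19.5 ± 1.42 CPM in PBS and 20.2 ± 1.18 CPM in LPS (0.05, SE 0.09, edgeR adjusted p = 0.716), and Rfxank had 8.001 ± 0.362 and 9.38 ± 0.698 CPM (0.23, SE 0.11, edgeR adjusted p = 0.193). The LPS libraries of Rfxank lay above its PBS libraries by a small margin, 8.47 CPM against 8.33 CPM at the closest. The 8 calls among the processing and regulator genes held in each of the 16 alternatives.

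**Figure D2:**
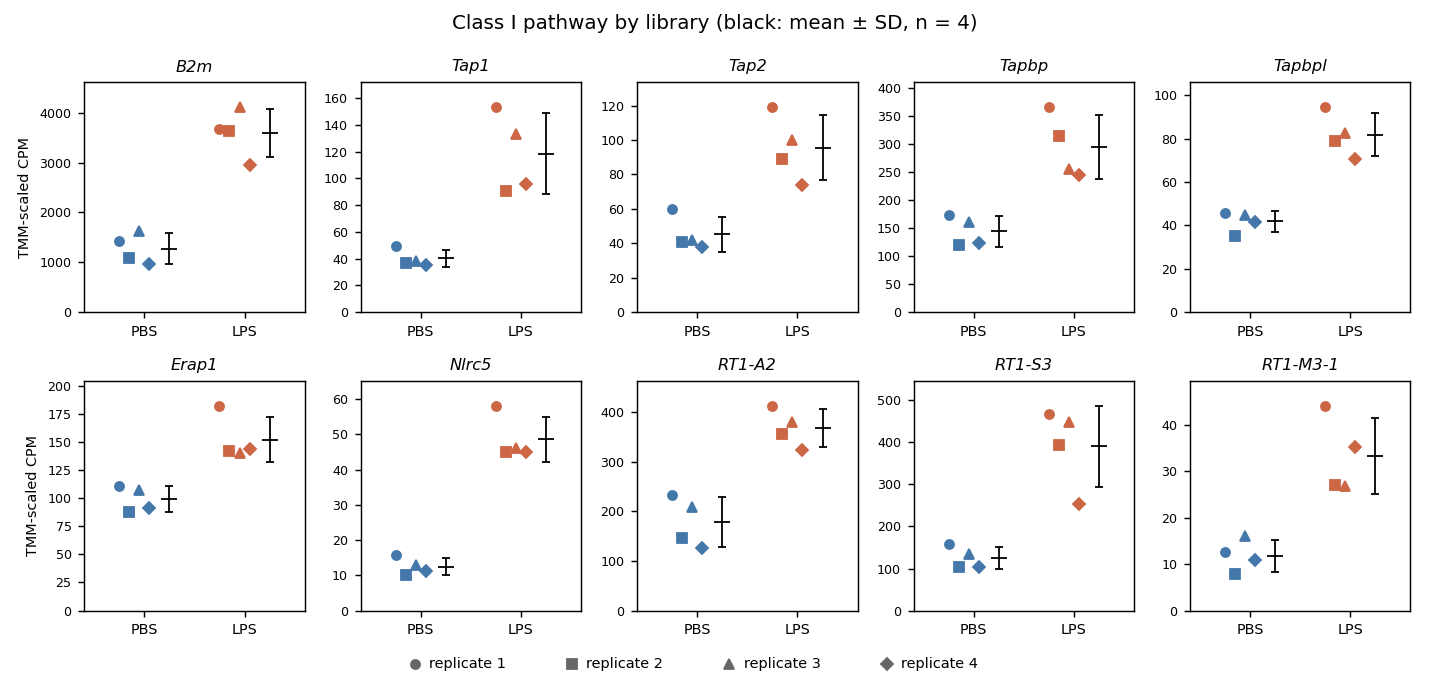
TMM-scaled CPM of 10 genes of the class I pathway in each library, with the mean and SD of each group (n = 4) in black and a marker shape for each replicate number. In these 10 panels every LPS library lies above every PBS library; B2m goes from 955 to 1627 CPM in PBS to 2954 to 4116 CPM in LPS.

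Genes that feed this pathway but were not chosen as members were listed separately. Of 5 subunits of the immunoproteasome and its activator, which cut peptides that suit class I molecules, 5 rose and 0 fell (median log2 fold change 1.496). The activator subunits Psme2 and Psme1 rose by 1.46 (SE 0.14, edgeR adjusted p = 0.000728) and 1.098 (SE 0.11, edgeR adjusted p = 0.000761). Psme2 stood at 67.1 ± 9.85 CPM in PBS and 185 ± 25.4 CPM in LPS, Psme1 at 126 ± 13.7 and 269 ± 23.8 CPM (n = 4 per group). Of 7 genes of peptide loading and the endoplasmic reticulum, 4 rose and 0 fell (median 0.45). Among them were calreticulin (Calr), a chaperone of the loading complex (0.90, SE 0.16, edgeR adjusted p = 0.00704), and the chaperone BiP (Hspa5, 1.04, SE 0.20, edgeR adjusted p = 0.0104). Of 11 tested genes that carry the interferon signal to MHC genes, 5 rose and 0 fell (median 0.84). Stat2, a subunit of the factor that binds interferon-stimulated elements, rose by 1.49 (SE 0.15, edgeR adjusted p = 0.000838), and Ifngr2, a chain of the receptor for interferon gamma, by 0.87 (SE 0.11, edgeR adjusted p = 0.00187). Ifng itself was below the filter on low counts.

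The RT1-A rows are the classical class I genes of the reference strain. RT1-A2 stood at 234, 146, 208 and 126 CPM in PBS replicates 1 to 4 and at 414, 356, 381 and 324 CPM in LPS replicates 1 to 4. All LPS libraries lay above all PBS libraries. It rose by 1.05 (SE 0.20, edgeR adjusted p = 0.00963), and RT1-A1 rose from 13.6 ± 3.12 to 26.9 ± 3.85 CPM, by 0.98 (SE 0.18, edgeR adjusted p = 0.00835). RT1-A3, named after its values were seen, was not called (1.29, SE 0.50, edgeR adjusted p = 0.114). Its level in LPS replicate 4, 0.416 CPM, was within the PBS range, while LPS replicates 1 to 3 stood between 1.34 and 2.20 CPM. Without LPS replicate 4 it was called (1.595, edgeR adjusted p = 0.0261).

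Class I promoters are known for elements that bind NF-kB, interferon regulatory factors and the RFX complex with its partners, and some of the class I windows held matches to them. RefSeq's GRCr8 table gave 250 bases before the start site for 50 of the 58 members, 32 of them class I rows, 9 class II rows and 9 processing and regulator genes. These were searched on both strands for GAANNGAAA (interferon regulatory factors), TGACG (X2 box), ATTGG (Y box) and the kB motif of NF-kB. They were also searched for CTAGCAAC (X1 box), letters chosen with the windows in view. The kB motif has 10 letters, including a position where any base is allowed. In both windows printed next, the first run of capitals holds overlapping matches to it. Shown are RT1-A2, a row that rose in each alternative, and RT1-CE16, the row that varied most between libraries, on the plus strand at chr20:4872621-4872870 and the minus strand at chr20:3265444-3265693. Capitals mark matches to these motifs.
RT1-A2: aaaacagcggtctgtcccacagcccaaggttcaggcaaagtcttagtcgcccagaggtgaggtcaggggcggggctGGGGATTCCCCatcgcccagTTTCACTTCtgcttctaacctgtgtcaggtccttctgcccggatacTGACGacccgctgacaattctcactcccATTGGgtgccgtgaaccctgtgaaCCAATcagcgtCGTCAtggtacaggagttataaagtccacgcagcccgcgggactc
RT1-CE16: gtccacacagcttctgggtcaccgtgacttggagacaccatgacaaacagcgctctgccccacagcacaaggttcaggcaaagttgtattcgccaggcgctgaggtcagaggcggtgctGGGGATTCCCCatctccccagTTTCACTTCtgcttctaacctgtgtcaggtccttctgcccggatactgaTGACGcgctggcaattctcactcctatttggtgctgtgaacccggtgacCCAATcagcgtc
Both windows hold the NF-kB motif, followed by the interferon motif, an X2 box and a Y box in the same order. RT1-A2 has a further match to the Y box and to the X2 box. The NF-kB motif was found in 8 of 32 class I windows, 0 of 9 class II windows and 0 of 9 windows of processing and regulator genes, against 0.254% of 33469 windows of all genes. The interferon motif was found in 13 of 32 class I windows, 0 of 9 class II windows and 3 of 9 of processing and regulator genes, against 7.12% of all. The short X2 box letters were in 8 of 32, 1 of 9 and 1 of 9 of these windows, against 18.2% of all. Near-identical class I copies share their windows, so these matches are not independent.

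The 13 RT1-CE rows are from the stretch of class I genes whose number differs most between haplotypes. RT1-CE6 and RT1-CE7 were not tested. Of the tested RT1-CE rows, 6 were called higher, as were 9.49% of all genes tested. RT1-CE2, RT1-CE10, RT1-CE11, RT1-CE12 and RT1-CE16 were not called. RT1-CE5 stood at 149, 107, 151 and 84.1 CPM in PBS and 351, 257, 237 and 234 CPM in LPS. Its groups were fully apart, and it rose by 1.13 (SE 0.21, edgeR adjusted p = 0.00995). RT1-CE4, whose RefSeq span overlaps that of RT1-CE5, stood at 13.3, 9.60, 11.2 and 7.97 CPM in PBS and 28.2, 23.1, 37.3 and 43.4 CPM in LPS and rose by 1.65 (SE 0.23, edgeR adjusted p = 0.00286). RT1-CE13 rose by 1.04 (SE 0.18, edgeR adjusted p = 0.00641) and RT1-CE3 by 1.24 (SE 0.27, edgeR adjusted p = 0.017), the latter with adjusted p = 0.0545 without PBS replicate 2. RT1-CE1 (1.24, adjusted p = 0.046) and RT1-CE15 (2.66, adjusted p = 0.0476) passed narrowly. The call of RT1-CE1 was lost in 9 of 16 alternatives, namely with no filter, with the replicate block, and when PBS replicate 2, 3 or 4 or any LPS library was left out, and its value was 0.98 without LPS replicate 4. That of RT1-CE15 was lost whichever PBS library was left out, without LPS replicate 1, with limma-voom, with no filter, with the replicate block and with PBS replicate 1 and LPS replicate 2 both left out. It stayed called without LPS replicate 4, at 1.20 (adjusted p = 0.0249).

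Reads of near-identical class I copies may have been split between rows or assigned to the wrong one, since the counting rules are not given. RefSeq's GRCr8 gene table lists 13 members whose spans overlap another member. A split between these rows leaves the sum over the 36 class I rows unchanged, though any reads left uncounted are missing from it. The sum was 846, 544, 745 and 650.4 CPM in PBS replicates 1 to 4 and 1877, 1582, 1943 and 2075 CPM in LPS replicates 1 to 4. Each LPS library thus held more class I counts than each PBS library, and the mean was 2.68-fold higher. Without RT1-CE16 the sum was 649 ± 173 CPM in PBS and 1556 ± 221 CPM in LPS (n = 4 per group), which is 2.40-fold. The ratio of B2m to this class I sum ran from 1.47 to 2.19 in PBS and from 1.42 to 2.29 in LPS, and its groups overlapped.

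**Figure D3:**
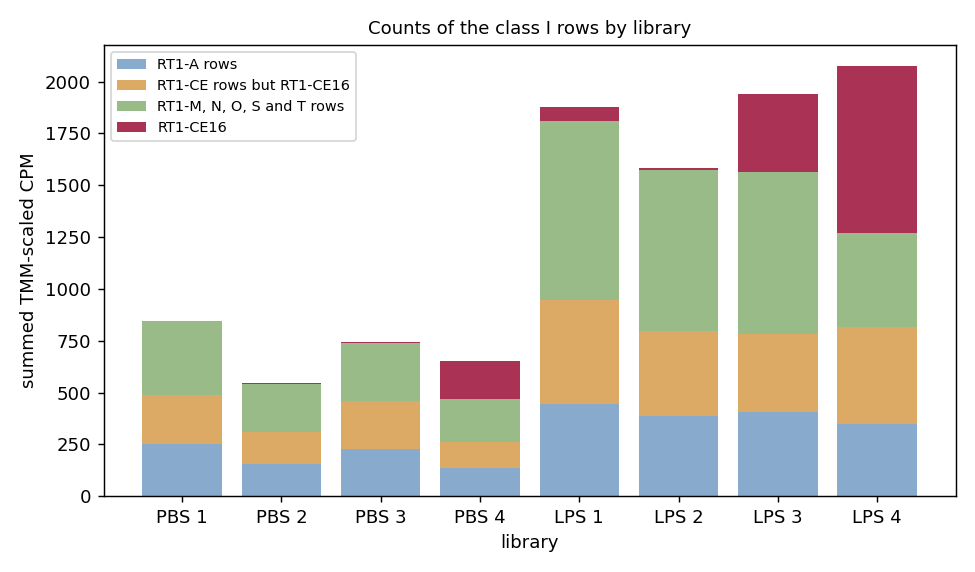
Summed TMM-scaled CPM of the class I rows in each library, stacked by group of rows. The totals are 544 to 846 CPM in PBS and 1582 to 2075 CPM in LPS, and RT1-CE16 takes a visible share in PBS replicate 4 and LPS replicates 1, 3 and 4.

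Among the other class I rows, RT1-S3, the rat relative of the mouse gene for Qa-1, a ligand of inhibitory receptors on natural killer cells, stood at 159, 103, 134 and 104 CPM in PBS and 468, 394, 448 and 254 CPM in LPS. The groups did not overlap, and LPS replicate 4 was the lowest of its group. It rose by 1.65 (SE 0.22, edgeR adjusted p = 0.00247). RT1-M3-1, whose mouse relative presents formylated bacterial and mitochondrial peptides, stood at 12.5, 7.82, 16.1 and 10.8 CPM in PBS and 44.1, 27.1, 26.9 and 35.3 CPM in LPS. It rose 2.82-fold, a log2 fold change of 1.496 (SE 0.24, edgeR adjusted p = 0.00537), with each LPS library above each PBS library. RT1-N3 rose from 18.6 ± 4.95 to 57.4 ± 15.7 CPM (1.62, SE 0.25, edgeR adjusted p = 0.00459). RT1-T24-3 rose from 24.8 ± 7.22 to 55.9 ± 7.88 CPM (1.17, SE 0.20, edgeR adjusted p = 0.00603), and its span overlaps that of RT1-T24-4. RT1-T24-4, named after its values were seen, was not called (0.73, SE 0.25, edgeR adjusted p = 0.0768), and passed without LPS replicate 4 (0.91, edgeR adjusted p = 0.0239), with DESeq2 and with the replicate block. RT1-T24-1 and RT1-M6-1, also named after their values were seen, were not called (edgeR adjusted p = 0.465 and 0.208) in the main test or in any alternative.

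Some class I rows differed widely between the libraries of a group. A row was counted as on and off within a group where the highest library reached at least 1 CPM and at least 10 times the lowest, which was set to no less than 3 counts. Of the 23 class I rows tested, 5 met this within LPS and 2 within PBS, against 1.77% and 1.3% of all genes tested. Of the 8 class II rows and the 12 processing and regulator genes, 0 met it in either group. In the class I rows that met it, the lowest library of the group held 66 to 344 counts, except RT1-S2 with 1 count. The rule thus marks a wide spread and need not mean that a row was absent. RT1-CE16 stood at 3.45, 2.40, 3.79 and 180.3 CPM in PBS replicates 1 to 4 and at 67.5, 6.50, 377 and 804 CPM in LPS replicates 1 to 4. Thus PBS replicate 4 and LPS replicates 1, 3 and 4 were high, the other libraries low, and the groups overlapped. Its share of the class I counts was 27.7% in PBS replicate 4 (95% Wilson interval 27.1 to 28.3), 38.8% in LPS replicate 4 (38.4 to 39.1), 19.4% in LPS replicate 3 (19.1 to 19.7) and 3.60% in LPS replicate 1 (3.47 to 3.73). It was 0.407 to 0.51% in PBS replicates 1, 2 and 3 and LPS replicate 2. The largest log2 fold change among the class I rows, 2.73, was that of RT1-CE16, and it was not called (SE 1.72, edgeR adjusted p = 0.31). Without PBS replicate 4 it was 6.61 (edgeR adjusted p = 0.0355), and without LPS replicate 4 it was 1.67.

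RT1-S2 was another such row. It had 22, 1, 40 and 0 counts in PBS replicates 1 to 4 and 92, 1, 58 and 3 counts in LPS replicates 1 to 4. Replicates 1 and 3 of both groups held it, and replicates 2 and 4 of both were at or under 3 counts. The labels do not pair animals by number. Its log2 fold change of 1.27 had an SE of 1.39 (edgeR adjusted p = 0.572), and moved to 0.39 with LPS replicate 1 left out and to 2.25 with PBS replicate 3 left out. RT1-S2 shares part of its span with RT1-O1, which had at most 3 counts in any library.

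RT1-N2 went the other way in LPS replicate 4. It stood at 35.9, 30.0, 19.1 and 10.97 CPM in PBS and at 93.7, 141, 63.8 and 8.41 CPM in LPS, so that LPS replicate 4 was the lowest of the 8 libraries and the other LPS libraries lay above all of PBS. It was not called with that library (1.68, SE 0.71, edgeR adjusted p = 0.138) and was called without it (2.05, edgeR adjusted p = 0.0187). RT1-CE2 reached 19.0 CPM in LPS replicate 2, while LPS replicates 1, 3 and 4 had between 1.74 and 5.39 CPM and the PBS libraries between 1.56 and 9.58 CPM (0.73, SE 0.78, edgeR adjusted p = 0.558). Its direction turned without LPS replicate 2 (-0.26).

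RT1-CE10 stood at 6.59, 2.75, 19.96 and 1.98 CPM in PBS and at 12.6, 13.0, 15.7 and 82.2 CPM in LPS. PBS replicate 3 and LPS replicate 4 held the most, the groups overlapped, and the row was not called (1.98, SE 0.89, edgeR adjusted p = 0.162). Its log2 fold change was 0.81 without LPS replicate 4 and 3.03 without PBS replicate 3, and it was not called in either case. RT1-CE15 was at 2.01 to 3.24 CPM in PBS, 4.58 to 7.39 CPM in LPS replicates 1 to 3 and 48.6 CPM in LPS replicate 4. LPS replicate 4 thus held the most RT1-CE10, RT1-CE15 and RT1-CE16 of its group, and also the most RT1-CE11 (13.0 CPM against 2.89 to 8.88 CPM), while it held the least RT1-CE12 (16.9 CPM against 45.9 to 63.8 CPM). These 5 rows lie in 1 run of neighbouring class I genes in RefSeq, with RT1-CE13 between them. The span of RT1-CE10 overlaps that of RT1-CE11, and the span of RT1-CE12 overlaps that of RT1-CE13, so their rows may share reads. RT1-CE13 stood at 7.31 CPM in LPS replicate 4 and between 7.29 and 9.09 CPM in LPS replicates 1 to 3. RT1-CE11 and RT1-CE12, chosen after their values were seen, were not called (edgeR adjusted p = 0.0532 and 0.166). RT1-CE11 was called without LPS replicate 3 (1.92, edgeR adjusted p = 0.0303) and with DESeq2, and RT1-CE12 without LPS replicate 4 (1.19, edgeR adjusted p = 0.0356). The alleles the animals carried were not measured, and their part in these patterns was not tested.

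**Figure D4:**
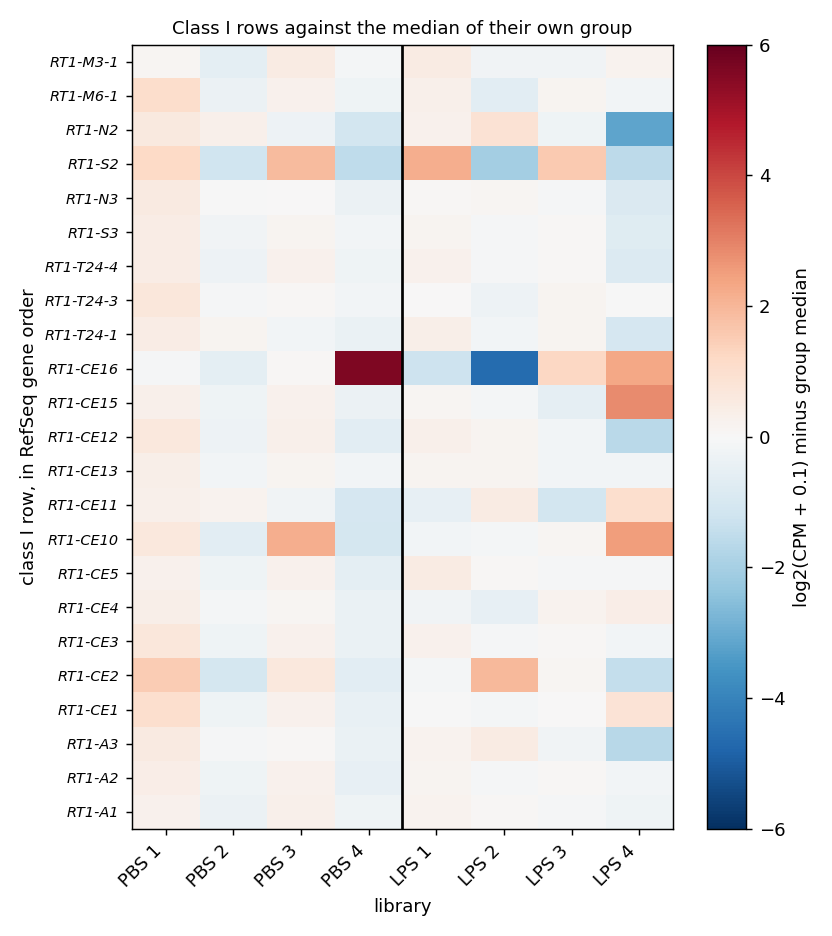
Level of each of the 23 tested class I rows in each library, as log2(CPM + 0.1) minus the median of the library's own group, with the rows in RefSeq gene order. The rows differ in how widely they spread within a group. RT1-CE16 is high in PBS replicate 4 (180.3 CPM) and low in LPS replicate 2 (6.50 CPM), and RT1-N2 is low in LPS replicate 4 (8.41 CPM).

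The tested class II chains that bind peptide were not called in either direction. They were named after their values were seen. RT1-Da, the rat counterpart of the human DR alpha chain, stood at 116, 135, 165 and 129 CPM in PBS replicates 1 to 4 and 117, 125, 141 and 71.0 CPM in LPS replicates 1 to 4. The groups overlapped, and LPS replicate 4 was the lowest library (-0.27, SE 0.20, edgeR adjusted p = 0.401, and -0.10 without LPS replicate 4). Its partner RT1-Db1 stood at 26.2, 31.7, 36.1 and 28.1 CPM in PBS and 21.3, 22.6, 26.1 and 12.0 CPM in LPS. Each LPS library lay below each PBS library, by less than 0.1 CPM at the closest, and the row was not called (-0.58, SE 0.22, edgeR adjusted p = 0.111). RT1-Ba and RT1-Bb, the counterparts of the human DQ chains, had log2 fold changes of -0.06 (SE 0.18) and -0.27 (SE 0.24), with adjusted p of 0.843 and 0.484 in edgeR. That of RT1-Ba turned above 0 without PBS replicate 3 (0.04) or LPS replicate 4 (0.08). RT1-DMa and RT1-DMb, which release the invariant chain fragment from class II molecules, had values of 0.30 (SE 0.16) and 0.20 (SE 0.20), with edgeR adjusted p of 0.22 and 0.518.

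The invariant chain Cd74 stood at 385, 448, 515 and 409 CPM in PBS replicates 1 to 4 and 548, 502, 480 and 270.4 CPM in LPS replicates 1 to 4. The groups overlapped, with LPS replicates 1 and 2 on either side of the highest PBS library and LPS replicate 4 below all of them. Its log2 fold change was 0.04 (SE 0.21, edgeR adjusted p = 0.926). Its sign changed in 6 of the 16 alternatives, the lowest value being -0.08. The sum over the 10 class II rows was 247 to 318 CPM in PBS, 258 to 287 CPM in LPS replicates 1 to 3 and 156 CPM in LPS replicate 4.

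RT1-DO, the pair of chains that binds RT1-DM and inhibits it, was lower after LPS, at low levels. RT1-DOa stood at 2.04, 2.82, 2.66 and 3.45 CPM in PBS replicates 1 to 4, which is 80 to 115 counts, and at 0.692, 0.666, 1.27 and 0.318 CPM in LPS, which is 13 to 50 counts. Every LPS library lay below every PBS library. RT1-DOa fell by 1.90 on the log2 scale (SE 0.41, edgeR adjusted p = 0.0158). RT1-DOb stood at 1.46, 2.30, 1.90 and 2.07 CPM in PBS and at 0.716, 0.666, 0.633 and 0.171 CPM in LPS. It fell by 1.82 (SE 0.43, edgeR adjusted p = 0.0228), again with no overlap, and LPS replicate 4 was the lowest. The ratio of RT1-DO to RT1-DM, as CPM summed over both chains of each, was 0.0562 to 0.135 in PBS and 0.0104 to 0.029 in LPS. The call of RT1-DOa held in each of the 16 alternatives. That of RT1-DOb was lost without PBS replicate 2 (-1.72, edgeR adjusted p = 0.0668), without PBS replicate 3 (-1.82, edgeR adjusted p = 0.0509) and with the replicate block. Without LPS replicate 4 both remained called, at -1.64 and -1.52.

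The promoter windows of a class II row that was not called and of one that fell are shown to compare their elements. They lie on the plus strand at chr20:4515165-4515414 and on the minus strand at chr20:4627524-4627773 of GRCr8, again with matches in capitals.
RT1-Da: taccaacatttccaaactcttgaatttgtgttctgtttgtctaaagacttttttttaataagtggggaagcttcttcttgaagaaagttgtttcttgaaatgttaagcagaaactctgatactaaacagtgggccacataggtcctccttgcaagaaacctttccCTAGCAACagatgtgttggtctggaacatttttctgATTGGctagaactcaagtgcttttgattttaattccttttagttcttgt
RT1-DOb: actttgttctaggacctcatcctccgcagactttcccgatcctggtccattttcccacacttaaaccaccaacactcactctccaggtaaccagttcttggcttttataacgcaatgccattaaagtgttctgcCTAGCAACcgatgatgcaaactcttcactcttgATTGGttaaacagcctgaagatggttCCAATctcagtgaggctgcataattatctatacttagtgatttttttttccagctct
Each holds an X1 box followed by a Y box, and RT1-DOb holds a further Y box match closer to the start. The X1 box letters were found in 3 of 9 class II windows and 0 of 32 class I windows, against 1.06% of all windows. These letters were chosen with the windows in view, so the counts are a description. The Y box letters, found in 34% of all windows, were in 9 of 9 class II and 20 of 32 class I windows. No match in such a window says only that these letters are not there.

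**Figure D5:**
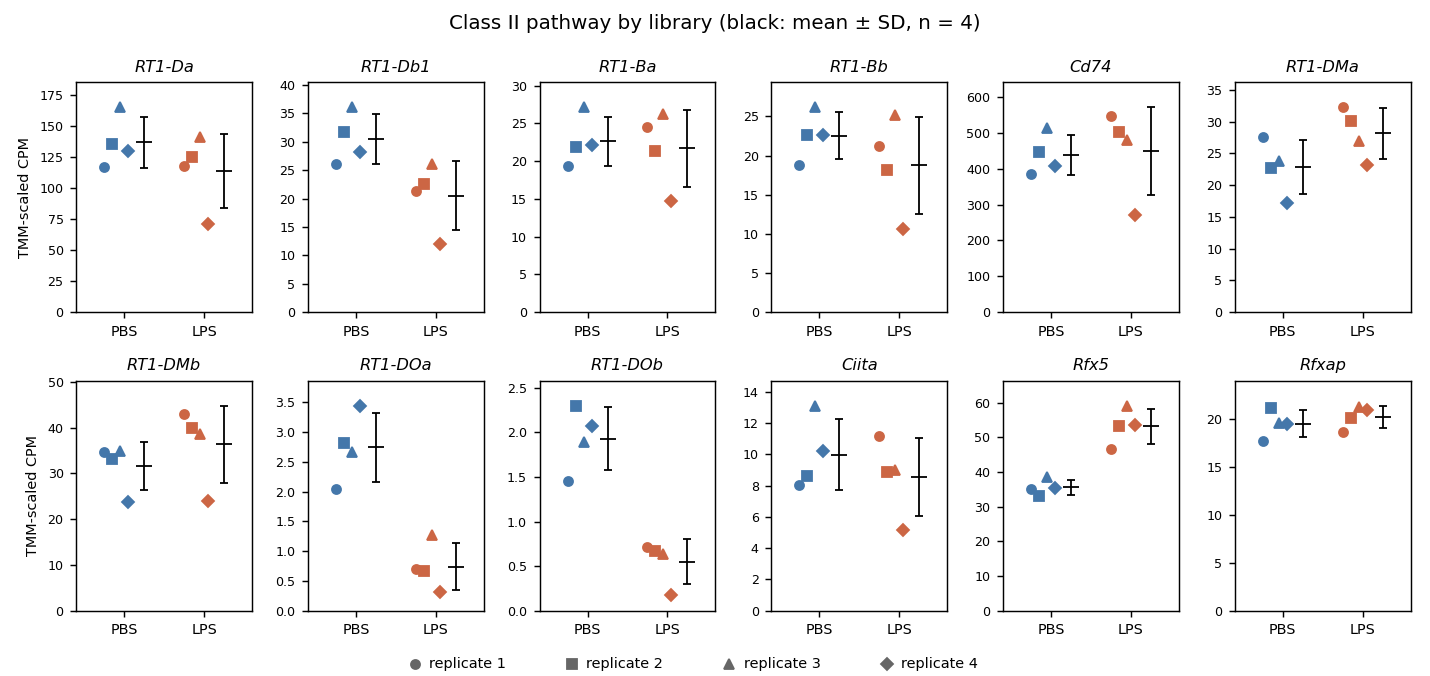
TMM-scaled CPM of 12 genes of the class II pathway in each library, with the mean and SD of each group (n = 4) in black and a marker shape for each replicate number. RT1-DOa, RT1-DOb and Rfx5 separate the groups clearly, and LPS replicate 4 is the lowest LPS library for RT1-Da (71.0 CPM), Cd74 (270.4 CPM) and Ciita (5.18 CPM).

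Class II genes mark certain cells, and in a piece of tissue fewer cells of a type and less RNA per cell cannot be told apart. Among macrophage and monocyte markers 7 of 9 rose, 0 fell, and their summed level went from 566 to 754 CPM in PBS to 1299.6 to 1905 CPM in LPS. LPS replicates 4 and 1 were the lowest of LPS and nearly equal, at 1299.6 and 1303 CPM. Of 8 dendritic cell markers, 4 rose and 1 fell, with sums of 81.6 to 109 CPM in PBS and 185 to 297 CPM in LPS. Most of that sum was Clec10a (64.5 ± 12.6 CPM in PBS and 185 ± 52.3 CPM in LPS), which macrophages also express, and the log2 fold changes of Xcr1 (-1.16), Clec9a (-0.60) and Zbtb46 (-0.44) were below 0 and not called. The one that fell was Flt3, a growth factor receptor of dendritic cells and their precursors, from 3.89 ± 1.75 to 1.16 ± 0.505 CPM (edgeR adjusted p = 0.0304, named after its value was seen). The B cell markers were near the detection limit, with sums of 1.02 to 3.73 CPM in PBS and 1.71 to 2.94 CPM in LPS, and Ms4a1, Pax5 and Cr2 were among those below the filter on low counts. Of 5 NK cell markers, 1 rose and 0 fell (sums of 1.96 to 5.67 and 5.70 to 9.02 CPM). Of 6 T cell markers, 1 rose and 0 fell (sums of 77.5 to 132 and 71.8 to 120.2 CPM). Cd4 made up 95.7 ± 23.6 and 81.2 ± 20.2 CPM of these. Means of Cd3e, Cd3d and Cd3g were 1.78, 0.28 and 1.72 CPM in PBS and 2.28, 0.41 and 1.30 CPM in LPS. The sum thus follows Cd4 and not the Cd3 genes, all named after their values were seen. Of 5 neutrophil markers tested, 5 rose and 0 fell, with sums of 28.2 to 50.1 and 378 to 1557.5 CPM. Endothelial markers numbered 6, as did fibroblast and smooth muscle markers. Of these, 0, 4 and 0 rose and 0, 0 and 4 fell, with sums of 302 to 670.5 and 331 to 516 CPM for endothelium and 11811 to 14859 and 16829 to 26533 CPM for fibroblasts. Of 5 markers each of simple and squamous epithelium, 0 rose, and 0 and 1 fell, with sums of 2675 to 3489 and 2138 to 2887 CPM for simple epithelium. Of the steroid receptors Esr1 and Pgr, Pgr fell by 0.63 (edgeR adjusted p = 0.037, named after its value was seen). The part of these cell types in the class I and class II results was not tested.

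Further genes of class II presentation and T cell contact were listed separately. Of 8 genes of endosomal processing, 3 rose and 0 fell (median log2 fold change 0.29). Legumain (Lgmn), an endosomal protease, rose from 129.99 ± 24.6 to 356 ± 71.7 CPM (edgeR adjusted p = 0.00212), and Marchf1, a ubiquitin ligase that removes class II molecules from the cell surface, from 6.08 ± 1.52 to 16.1 ± 4.88 CPM (edgeR adjusted p = 0.00762). Of 7 genes of co-stimulation, 3 rose and 0 fell (median 0.77). Cd274, the inhibitory ligand PD-L1, rose from 7.89 ± 1.51 to 37.7 ± 9.13 CPM (log2 fold change 2.26, SE 0.20, edgeR adjusted p = 0.000586), and the receptor Cd40 by 0.77 (SE 0.14, edgeR adjusted p = 0.00863). Of 6 tested class I-like genes outside RT1, 0 rose and 1 fell (median 0.16). That gene was Mill1, from 26.5 ± 3.12 to 13.1 ± 6.16 CPM (-1.02, SE 0.29, edgeR adjusted p = 0.0424).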

How the data were processed

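RNA of the cervix of 8 rats was extracted with TRIzol and sequenced from VAHTS Universal V6 libraries, per the labels' protocols. The table the authors deposited holds raw counts per symbol. Tools named in the submitters' processing notes are HTSeq, HISAT2, fastp and R 3.2.0, and the build is mRatBN7.2. Strand, multi-mapping rules and annotation: not given in the sources used here. Columns were matched to samples by the library names in the labels.

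Genes were kept by filterByExpr of edgeR 4.0.16 (R 4.3.3), scaled by TMM and tested with robust quasi-likelihood F tests, LPS against PBS, no covariate, with Benjamini-Hochberg adjustment over 16117 genes. SE is the absolute log2 fold change divided by the root of F. The test was checked on simulated data. The members, gene lists and motifs were chosen with earlier results of these data known. Named were each RT1 row that was called or on and off, the 12 other members and the 2 called genes of each related list with the lowest adjusted p; any other is marked in the text. Counts of a list are given with no list test.

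Within groups, all library pairs differed beyond sampling noise (chi-square per degree of freedom at least 54.1 over genes with at least 10 counts). A level of 3 counts was 0.0734 to 0.0899 CPM, and intervals and floors cover counting error only. Also run were limma-voom 3.58.1, DESeq2 1.42.0, upper-quartile and RLE scaling, no filter, a minimum of 1 CPM in 4 or more libraries, each library left out, PBS replicate 1 and LPS replicate 2 left out together, and a replicate block. Promoter windows are from RefSeq (GRCr8).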

Additional observations from a re-analysis of the deposited data

Results flagged for a closer look

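In each group of 4 libraries, the highest and lowest values of the named members were set against the rest of the group. A library was singled out where its gap to the nearest other took more of the group's range than Dixon's 95% critical value for 4 samples. Of 62 groups examined, 7 held such a library. The rule's rate of about 1 in 20 is for groups not chosen by their spread. Some of these rows were named because they spread widely within a group, so that rate is no yardstick here. LPS replicate 4 accounted for 4 of them. It was far above the other LPS libraries for RT1-CE1 (18.8 CPM), RT1-CE10 (82.2 CPM) and RT1-CE15 (48.6 CPM), and far below them for RT1-DOb (0.171 CPM). PBS replicate 4 was far above the other PBS libraries for RT1-CE16 (180.3 CPM). LPS replicate 1 was far above the other LPS libraries for Erap1 (182 CPM) and Nlrc5 (58.2 CPM), and the groups of neither gene overlapped.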

How the results depend on the processing

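Each result was recomputed under 16 alternatives. The count of class I rows called higher ran from 9 to 15 with a library left out (12 with all) and from 10 to 13 under the others, and that of processing and regulator genes was 8 throughout. Of the 12 class I calls, 9 held in each alternative that gave an adjusted p; DESeq2 gave none for RT1-CE15. The count of class II rows called lower ran from 1 to 2 with a library left out and was 1 with the replicate block. Over all genes (1529 higher and 1200 lower with all libraries), those called higher ran from 904 to 1385 and those called lower from 563 to 1199 with a library left out, both lowest without PBS replicate 2, and DESeq2 called 2089 lower. Under a 20-fold rule in place of 10-fold, 1 class I row was on and off in PBS and 2 in LPS, against 0.44% and 0.63% of all genes tested. Under a 5-fold rule these were 3 and 7 rows, against 3.4% and 4.3%. With a minimum of 3 CPM and 10-fold, they were 2 and 4 rows, against 0.69% and 0.99%. With a library left out, the log2 fold change of RT1-CE2 ran from -0.256 (LPS replicate 2 out) to 1.38, that of RT1-Ba from -0.169 to 0.0849, above 0 with PBS replicate 3 (0.0372) or LPS replicate 4 out, and that of Cd74 from -0.0715 to 0.217, below 0 with PBS replicate 1 (-0.0261), LPS replicate 1 (-0.0715) or LPS replicate 2 (-0.0273) out. Cd74 was also below 0 with limma-voom (-0.00299), with PBS replicate 1 and LPS replicate 2 both out (-0.0829) and with the replicate block (-0.00451). The cause was not tested. The labels do not pair animals by replicate number. Deviations of same-numbered libraries correlated from -0.0989 to 0.242 over genes, and those of other pairs from -0.235 to 0.175. The highest value was that of PBS replicate 4 with LPS replicate 4. Replicate numbers, also those of the replicate block, are from the sample titles. The library name of LPS replicate 4 carries a different number, so by library name that pair is not same-numbered. With so few libraries these correlations cannot settle whether same-numbered libraries shared a batch. With the replicate block 11 class I rows were called higher. Scaling moved the median of all genes by under 0.1. The widest standard errors were those of RT1-CE16 (1.72, with 57147 counts in all) and RT1-S2 (1.39, with 217 counts).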

Other observations

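Rows that were not tested still held reads in some libraries. RT1-M2 had 13, 4, 40 and 5 counts in PBS replicates 1 to 4 and 5, 4, 0 and 31 counts in LPS replicates 1 to 4. RT1-Db2, a second DR-like beta chain, had 1, 0, 10 and 13 counts in PBS and 1, 2, 3 and 3 counts in LPS. RT1-Ha, the counterpart of the human DP alpha chain, had at most 14 counts in any library. The class I rows with no count in any library were RT1-CE6, RT1-M1-4, RT1-M1-5, RT1-M10-1, RT1-M4, RT1-M6-2 and RT1-T18.

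The ratio of RT1-Da to Cd74 CPM was 0.302 to 0.320 in the 4 PBS libraries and 0.214 to 0.294 in the 4 LPS libraries, without overlap. That of RT1-Ba to RT1-Bb was 0.965 to 1.04 in PBS and 1.04 to 1.39 in LPS. These ratios were looked at after the single genes were seen and were not tested.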
